A study of Mus musculus with 31 samples.

Results

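Foxp3 and 9 further genes by which regulatory T cells (Treg) are usually recognised were followed through every probe set that the platform annotation pairs with their symbols. That gave 21 probe sets of 10 genes (1 each for Foxp3, Ctla4, Tnfrsf18 and Tnfrsf4, 2 for Il2ra, 3 each for Tnfrsf9, Ikzf2, Ikzf4, Entpd1 and Nt5e) out of 45037 probe sets that are no Affymetrix control. The data went against the label of Treg transcripts for part of the set: the probe sets of Foxp3 and Ctla4, both of Il2ra, 2 of the 3 of Tnfrsf9 and 1 of the 3 each of Ikzf2, Entpd1 and Nt5e did not stand above bacterial control probe sets on every array. 12 probe sets of 7 genes did, and those farthest above the controls were probe sets of Ikzf2, Ikzf4 and Nt5e.

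Treg are CD4 T cells that restrain immune responses, and the transcription factor Foxp3, encoded on the X chromosome, specifies and maintains them. Il2ra (CD25) completes the high-affinity interleukin 2 receptor through which they take up that cytokine, and Ctla4 is the inhibitory receptor that strips costimulatory ligands from antigen-presenting cells. Tnfrsf18 (GITR), Tnfrsf4 (OX40) and Tnfrsf9 (4-1BB) are costimulatory receptors of the tumour necrosis factor family, Ikzf2 (Helios) and Ikzf4 (Eos) are zinc finger factors of the Ikaros family, and Entpd1 (CD39) and Nt5e (CD73) are surface enzymes that act in turn to convert extracellular ATP into adenosine. Several of these genes are not restricted to T cells: Entpd1 is made by microglia and endothelium, and Nt5e by many stromal cells.

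Total RNA on 31 Affymetrix mouse arrays was assigned by the labels to 10 groups of CD4 T cells sorted from spleen and lymph nodes. Mice with a bicistronic Foxp3/EGFP reporter gave natural Treg (reporter-positive, not activated, 4 arrays), conventional T (reporter-negative, not activated, 3), activated T (reporter-negative cells given anti-CD3 and anti-CD28 without TGF-beta, 4), activated natural Treg (anti-CD3, anti-CD28 and TGF-beta, 3), induced Treg (reporter-negative cells treated for 3 days with the same antibodies and TGF-beta and sorted as reporter-positive, 5) and failed induced Treg (cells of those cultures that stayed reporter-negative, 3). Mice with the mutant Foxp3deltaEGFP allele gave natural Foxp3-delta cells (not activated, from heterozygous females, 2) and induced Foxp3-delta cells (3 days with antibodies and TGF-beta, from cells that the labels trace to mutant males, 3). IL-2 induced Treg and IL-2 induced Foxp3-delta were the induced cells kept 1 week longer in interleukin 2 at 100 units/ml (2 and 2). All groups thus share CD4 sorting and a reporter in the Foxp3 gene, and the reporter, not a measured Foxp3 transcript, defines each group. The labels do not say that arrays of a group came from separate cultures or animals, so a p-value here speaks only for the spread among the arrays, part of which may be technical.

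The RNA did not read as sorted T cells on any array, and group names below are those of the labels. Of 27 probe sets for 17 genes of T cell identity, 10 stood above the bacterial controls on all 31 arrays, and their median lay between percentile 22.9 and 29.8 of an array's probe sets. Probe sets for neurons, myelin and astrocytes had median percentiles of 97.1, 98.8 and 90.2. The deposited array medians ran from 22.2 to 55.4. Clustering on the array median, the array's 99th percentile and the difference of the cre and bioB control probe sets divided the arrays into 3 array sets of 15, 6 and 10. The third held the dimmest arrays, which follows in part from the use of brightness in the clustering. In bulk RNA, fewer cells of a type and less RNA per cell cannot be told apart.

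Background was measured on each array with 27 probe sets for Bacillus genes, which have no mouse target and which were not spiked in. Their 95th percentile ran from 9.17 to 18.7 intensity units over the 31 arrays, with a median of 11.6. 12 member probe sets lay above it on all arrays, 7 on some and 2 on none. Of all probe sets, 65.4% lay above it on all arrays, against 12 of 21 here, so standing above the bacterial controls did not set these genes apart. A stricter yardstick was the 95th percentile of 39 probe sets for 27 genes of liver, kidney, muscle, skin, gut, lung, pancreas and testis, which ran from 35.2 to 83.9; 13 of those probe sets also exceeded the bacterial level on every array. By that yardstick 4 member probe sets were above on some arrays and 0 on all: Ikzf2 1437542_at on 28 arrays, Ikzf4 1438274_at on 28 and 1457342_at on 17, and Nt5e 1428547_at on 29. Mean percentiles of the 21 among an array's probe sets ran from 6.40 (Tnfrsf9 1421481_at) to 60.7 (Ikzf2 1437542_at). Probe sets differ in how strongly they bind, so each is set here against the controls and not against another gene.

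**Figure D1:**
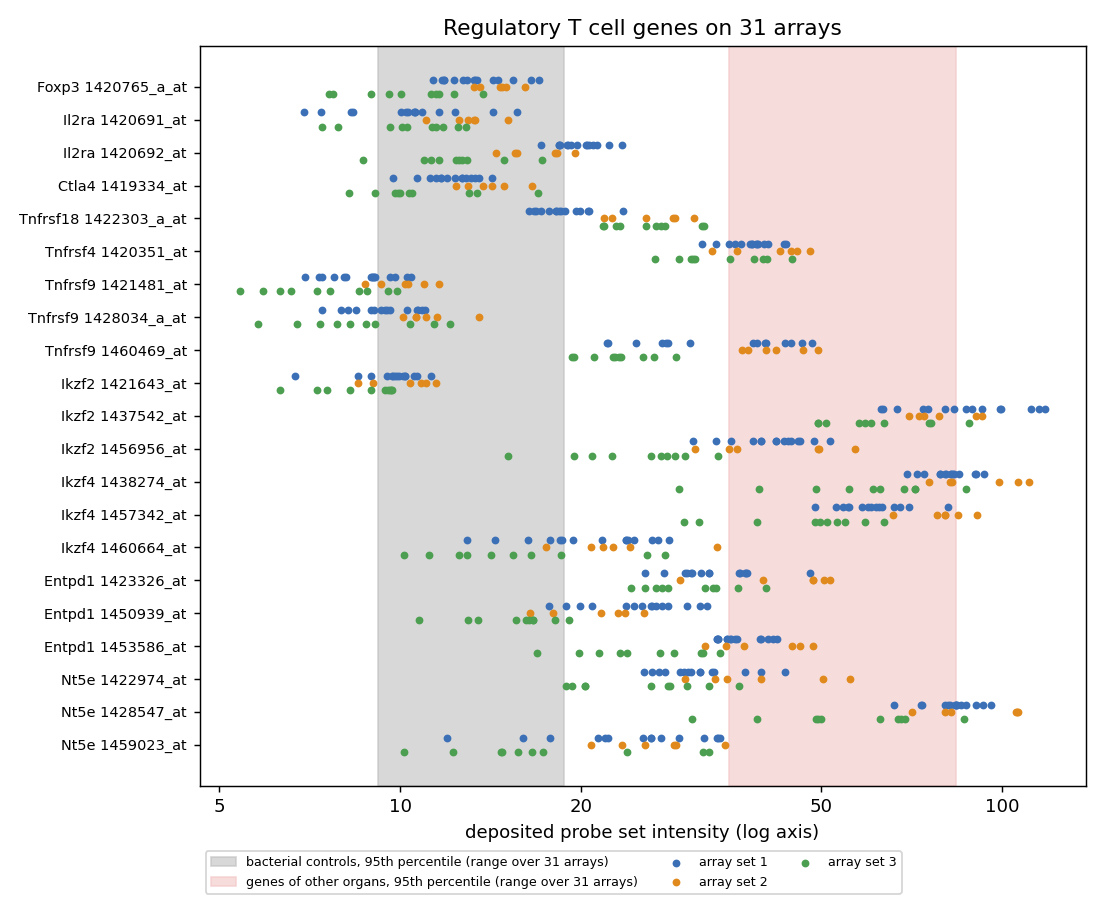
Deposited intensity (log axis) of the 21 member probe sets on 31 arrays, 1 point per array, coloured by array set; the grey and pink bands span, over the arrays, the 95th percentile of the bacterial controls (9.17 to 18.7) and of genes of other organs (35.2 to 83.9). Foxp3, Il2ra 1420691_at and Ctla4 lie within or beside the grey band, and points beyond the pink band are seen for Ikzf2, Ikzf4 and Nt5e.

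Foxp3 read close to the bacterial controls in every label group. On the arrays labelled natural Treg the deposited intensities were 13.3, 13.2, 12.3 and 16.5, and on those labelled conventional T they were 14.5, 14.3 and 12.7. The natural Foxp3-delta arrays gave 15.0 and 8.92. The natural Treg and conventional T ranges overlapped, and their means were 13.8 ± 1.84 (SD, n = 4) and 13.8 ± 0.986 (n = 3).

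Intensities after culture overlapped with these. The induced Treg arrays read 13.4, 11.7, 13.6, 14.8 and 12.3, and the failed induced Treg arrays, sorted as reporter-negative from those cultures, 17.0, 15.4 and 11.4. The ranges of this pair overlapped, and the activated natural Treg arrays read 7.62, 10.0 and 13.7. Activated T gave 13.3, 9.57, 7.74 and 11.6, induced Foxp3-delta 16.1, 14.6 and 11.2, IL-2 induced Treg 11.3 and 11.8, and IL-2 induced Foxp3-delta 11.8 and 12.9. Deposited values also move with array brightness: the highest was on failed induced Treg 1 and the lowest on activated natural Treg 1, whereas after quantile normalisation the highest was on natural Treg 4 (16.9) and the lowest on natural Foxp3-delta 2 (9.59).

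Foxp3 exceeded its own array's bacterial 95th percentile on 17 of 31 arrays and the highest single bacterial control on 0. That highest control had the range of 1 probe set, PheX-3 (14.6 to 35.5, median 25.9), and the other controls had medians of 11.8 or less. Against the highest Y-linked probe set, a yardstick added after seeing the data, Foxp3 was above on 30 of 31 arrays. By label, it exceeded the 95th percentile on 3 of 4 natural Treg, 3 of 3 conventional T, 2 of 3 failed induced Treg, 2 of 5 induced Treg, 2 of 2 IL-2 induced Treg and 2 of 2 IL-2 induced Foxp3-delta arrays. It did so on 1 of 3 activated natural Treg, 1 of 4 activated T, 1 of 3 induced Foxp3-delta and 0 of 2 natural Foxp3-delta arrays. Labels of reporter-positive and of reporter-negative cells were thus found at both ends. On the induced Foxp3-delta arrays, traced by the labels to mutant males, the highest Y-linked reading was 11.1, 10.3 and 9.09. These readings lay under the bacterial 95th percentiles of the same arrays (16.7, 13.8 and 11.8). The RNA thus gave no Y-linked signal above background for cells labelled as male, and the reason was not tested.

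The 10 group means of Foxp3, on the scale log2(quantile normalised intensity + 16) used for all tests, spanned 0.13 from natural Treg at the top to natural Foxp3-delta at the bottom. None of the 9 gaps between neighbours in that order exceeded the pooled SD of 0.09 between arrays of a group. The moderated F test of limma over the 10 groups gave an adjusted p of 0.899. Induced Treg minus failed induced Treg was -0.08 log2 units (SE 0.07, 95% interval -0.21 to 0.06), and natural Treg minus natural Foxp3-delta was 0.13 (SE 0.08, interval -0.03 to 0.29). Both intervals include 0, on a scale that understates changes of dim genes. The probe set is not known here to lie inside or outside the mutated part of Foxp3deltaEGFP, so it does not test that allele.

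**Figure D2:**
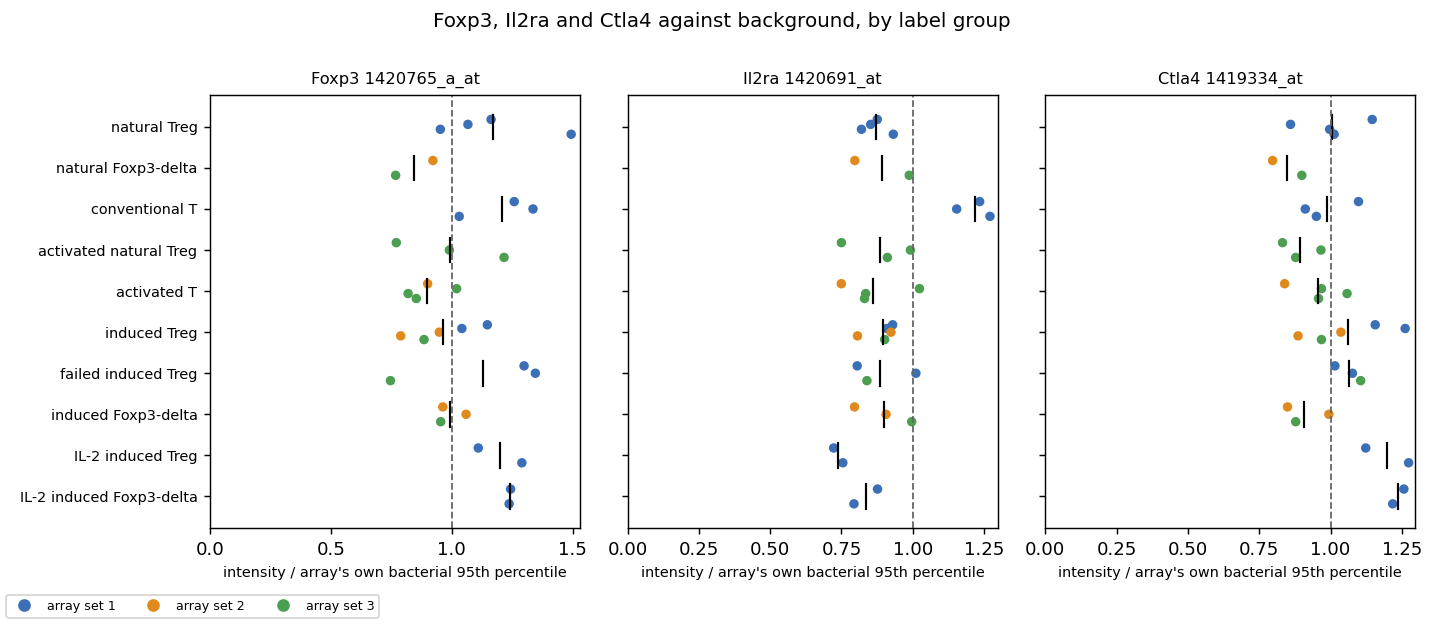
Deposited intensity of Foxp3, Il2ra 1420691_at and Ctla4 divided by the array's own bacterial 95th percentile (x axis, ratio) in the 10 label groups; points are arrays coloured by array set, black bars group means, and the dashed line marks a ratio of 1. Points of each gene lie on both sides of the line, with medians over 31 arrays of 1.03, 0.877 and 0.994.

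To show the start of a gene close to background beside that of a gene above it, the 250 bases upstream of the annotated starts of Foxp3 and Nt5e are given from RefSeq (build GRCm38.p6), with CpG dinucleotides, the sites of DNA methylation, in capitals. Foxp3 is at chrX:7579426-7579675 and Nt5e at chr9:88327359-88327608, both on the plus strand.
Foxp3: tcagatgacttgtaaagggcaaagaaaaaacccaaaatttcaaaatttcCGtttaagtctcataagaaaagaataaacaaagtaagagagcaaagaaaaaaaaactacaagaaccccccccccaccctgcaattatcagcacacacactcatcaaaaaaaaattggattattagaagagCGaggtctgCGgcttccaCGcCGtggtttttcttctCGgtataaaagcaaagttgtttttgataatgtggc
Nt5e: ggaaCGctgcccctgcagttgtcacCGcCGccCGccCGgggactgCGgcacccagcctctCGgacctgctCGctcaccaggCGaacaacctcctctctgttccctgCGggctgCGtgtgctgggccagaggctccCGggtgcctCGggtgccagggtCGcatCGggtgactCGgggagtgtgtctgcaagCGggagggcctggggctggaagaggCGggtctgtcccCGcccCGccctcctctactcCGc
The Foxp3 stretch holds 6 CpG and is 37.6% G and C, and the Nt5e stretch holds 21 and is 72.0% G and C. A second annotated start of Foxp3 has 7. Across 32851 such stretches of all genes the median was 6, 53.7% had 6 or fewer and 85.2% had 21 or fewer. 8 of the 10 genes had an entry. Il2ra had 3 CpG, Ctla4 7, Tnfrsf18 2, Tnfrsf4 5, both starts of Tnfrsf9 4, and Entpd1 18 and 8 at its 2 starts. The counts do not order the genes by level: Tnfrsf18 and Tnfrsf4 stood above the bacterial controls on all arrays with fewer CpG than Foxp3 or Ctla4.

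The receptors for interleukin 2 and for costimulatory ligands were also close to background. Il2ra 1420691_at ranged from 6.92 to 15.7 (median 10.9) and exceeded its array's bacterial level on 5 of 31 arrays, the 3 of conventional T among them. Ctla4 ranged from 8.22 to 17.0 (median 12.4) and exceeded it on 14. Neither exceeded the highest bacterial control on any array, and they exceeded the highest Y-linked probe set on 23 and 28 arrays.

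The second Il2ra probe set, 1420692_at, ranged from 8.66 to 23.4 and exceeded the bacterial level on 28 arrays, though never the highest control. Its pattern followed the array sets: after quantile normalisation it read 17.6 to 20.3 on the 15 arrays of set 1, 14.0 to 14.7 on the 6 of set 2 and 12.9 to 15.8 on the 10 of set 3, so set 1 did not overlap the others. Within 1 label the same split appeared, since the induced Treg arrays read 19.5 and 19.8 in set 1 and 14.1, 14.5 and 14.5 in sets 2 and 3. Array set accounted for 92.3% of the variance of this probe set. The other Il2ra probe set moved the opposite way over the 31 arrays (Pearson r = -0.49).

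Tnfrsf18 and Tnfrsf4, which lie next to each other on chromosome 4, stood above the bacterial controls on all 31 arrays, at 16.4 to 32.0 and 26.5 to 48.1. Both followed the array sets, which accounted for 94.9% and 84.1% of their variance. Tnfrsf18, quantile normalised, read 16.7 to 20.7, 20.7 to 22.9 and 30.1 to 38.9 in sets 1, 2 and 3, and Tnfrsf4 read 32.5 to 37.9, 32.2 to 38.2 and 39.5 to 52.0. Their highest group means, on arrays labelled activated natural Treg and activated T, therefore belonged to labels held wholly or mostly in set 3. With array set as a block the F test over label groups gave adjusted p values of 0.984 and 0.985.

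Tnfrsf9 was read very differently by its 3 probe sets. 1421481_at (5.41 to 11.6) and 1428034_a_at (5.80 to 13.5) were above the bacterial level on 0 of 31 arrays. 1460469_at (19.3 to 49.5) was above it on all 31, and above the highest control on 25. It had quantile normalised intensities of 38.5, 40.1, 40.3 and 39.3 on the natural Treg arrays and 26.2, 25.6 and 26.1 on the conventional T arrays, all in array set 1. The groups did not overlap, by 0.41 log2 units (SE 0.08, interval 0.24 to 0.57), yet the difference missed the threshold over all probe sets in limma (adjusted p = 0.239), and passed it with array set as a block (0.000407). The 2 dimmer probe sets differed by 0.05 or less between these labels. Over the 10 labels 1460469_at was highest in natural Treg and lowest in IL-2 induced Treg (24.3 and 23.1).

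The Ikaros family factors held 3 of the 4 probe sets that exceeded the genes of other organs on some arrays. Ikzf2 1437542_at ranged from 49.4 to 118 and 1456956_at from 15.1 to 56.9, both above the bacterial level on all arrays, whereas 1421643_at (6.32 to 11.5) was above it on 1. Ikzf4 was above on all arrays with its 3 probe sets, at 29.1 to 111 (1438274_at), 29.6 to 91.1 (1457342_at) and 10.1 to 33.6 (1460664_at). Helios and Eos are used to mark Treg, but after quantile normalisation natural Treg was not the highest of the 10 labels for any of these probe sets. As deposited it was the highest for 1, Ikzf2 1421643_at (mean 10.4), which lay under the bacterial level on 30 arrays.

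Ikzf2 1437542_at read 69.9, 57.5, 61.9 and 62.8 on natural Treg and 83.2, 105 and 108 on conventional T after quantile normalisation. The natural Treg arrays were thus the lower ones, without overlap, by 0.54 log2 units (SE 0.13), which missed the threshold (adjusted p = 0.701). The other expressed Ikzf2 probe set differed by -0.06 (SE 0.08) and overlapped. Of Ikzf4, 1457342_at read 62.1, 53.1, 68.7 and 63.1 on natural Treg against 48.8, 49.8 and 48.6 on conventional T, and 1460664_at read 23.2, 19.7, 20.5 and 24.5 against 13.3, 18.3 and 17.6. Both were higher without overlap, by 0.25 (SE 0.09) and 0.23 (SE 0.10), at adjusted p = 1, and 1438274_at overlapped (0.13, SE 0.09).

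The adenosine-producing enzymes were above the bacterial controls with most of their probe sets. Entpd1 ranged from 24.2 to 51.9 (1423326_at) and 16.8 to 48.5 (1453586_at), each above on all arrays, and from 10.8 to 32.4 (1450939_at), above on 28. Nt5e ranged from 30.5 to 106 (1428547_at) and 18.8 to 56.0 (1422974_at), both above on all arrays, and from 10.1 to 34.6 (1459023_at), above on 30. Markers of cells other than T cells that make these enzymes were well above background as well: 13 microglia genes had a median percentile of 72.2 and 11 endothelial genes one of 73.4, with all 13 and all 11 above on every array through at least 1 probe set. The part of those cells in the Entpd1 and Nt5e values was not tested.

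Nt5e 1428547_at was called between labels in 3 of the 8 comparisons described below. The 4 activated T arrays read 67.5, 60.4, 56.7 and 63.6 after quantile normalisation, lower than on every other array. The activated natural Treg arrays read 88.1, 75.8 and 85.5, the induced Treg arrays 76.9, 76.9, 74.9, 76.7 and 94.0, and the conventional T arrays 77.7, 76.1 and 74.4. Activated T did not overlap with any of these labels, induced Treg overlapped with conventional T, and 2 of the 3 activated natural Treg arrays lay above all conventional T arrays, a difference that was not tested. The other Nt5e probe sets did not follow: 1422974_at differed between activated natural Treg and activated T by -0.05 (SE 0.10) and 1459023_at by -0.17 (SE 0.13).

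**Figure D3:**
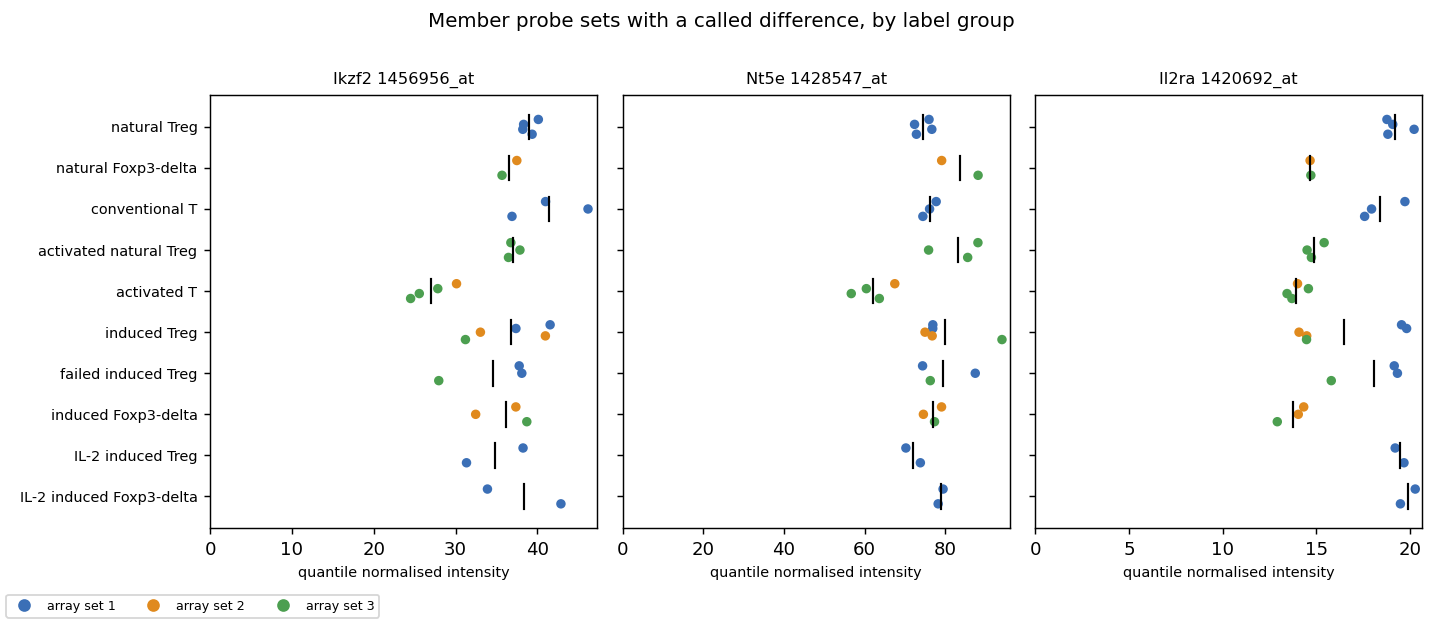
Quantile normalised intensity (linear axes from 0) of the probe sets with a called difference between labels, by label group; points are arrays coloured by array set and black bars are group means. Nt5e 1428547_at and Ikzf2 1456956_at have their lowest means on arrays labelled activated T, and Il2ra 1420692_at divides by array set.

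8 comparisons of labels were tested over all 45037 probe sets with limma, with a call at an adjusted p under 0.05. Natural Treg against conventional T, labelled as reporter-positive and reporter-negative unstimulated cells, called 0 of the 21 member probe sets and 0% of all probe sets (at an unadjusted p under 0.05, 5 members and 1084 probe sets, or 2.41%). The groups did not overlap for 7 of the 21 members, against 6.15% of all probe sets: Tnfrsf9 1460469_at and 1428034_a_at and the Ikzf4 pair given above were higher on natural Treg, and Il2ra 1420691_at, Ikzf2 1437542_at and Entpd1 1423326_at were lower. Il2ra is a defining gene of natural Treg, and its dimmer probe set 1420691_at had intensities of 9.91, 10.4, 10.1 and 10.1 there and 13.2, 12.2 and 15.0 on conventional T (log2 difference -0.17, SE 0.04, adjusted p = 0.721). The natural Treg values lay under the bacterial 95th percentile of their arrays and the conventional T values just over it, so no fold is drawn from them. The brighter Il2ra probe set, 1420692_at, was above that level on all arrays of both labels. It differed by 0.03 (SE 0.05) and overlapped, so Il2ra as a gene was not seen to be lower on natural Treg. The median member difference was 0.02, and that of all probe sets 0.

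Natural Treg against natural Foxp3-delta, labelled as unstimulated cells with the intact and the mutant allele, called 0 members and 0.0422% of all probe sets. 11 of 21 members did not overlap, against 25.7% of all probe sets, with 2 arrays in the smaller group. The largest differences were Entpd1 1450939_at, 0.45 higher (SE 0.14), and Tnfrsf18, 0.35 lower (SE 0.16) on natural Treg, at adjusted p values of 0.171 and 0.353. These labels share no array set, so label and array set cannot be told apart. Induced Treg against induced Foxp3-delta called 0 members and 0% of all probe sets (unadjusted 2 members and 1431 probe sets, or 3.18%), and IL-2 induced Treg against IL-2 induced Foxp3-delta 0 members and 0% (unadjusted 0 members and 1269 probe sets, or 2.82%). Induced Treg against failed induced Treg also called 0 members and 0% (unadjusted 0 members and 2096 probe sets, or 4.65%). In these comparisons of induced cells the groups did not overlap for 1 member (2.4% of all probe sets) against Foxp3-delta, 7 (34.8%) in the IL-2 pair with 2 arrays a group, and 0 (2.91%) against failed induced Treg.

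Activated T against conventional T, labelled as stimulated and unstimulated reporter-negative cells, called 3 members (3.11% of all probe sets), all lower (1.62%) and 0 higher (1.49%). The groups did not overlap for 6 members (17.3%). Ikzf2 1456956_at was lower by 0.41 (SE 0.08, adjusted p = 0.00848), at 30.1, 27.8, 25.6 and 24.5 on activated T against 41.0, 46.2 and 36.9 on conventional T. Nt5e 1428547_at was lower by 0.24 (SE 0.06, adjusted p = 0.0346). Il2ra 1420692_at was lower by 0.20 (SE 0.05, adjusted p = 0.0399), at 14.0, 14.6, 13.4 and 13.7 against 19.7, 17.9 and 17.6, although stimulated T cells are known for raising CD25. All conventional T arrays were in array set 1 and all activated T arrays in sets 2 and 3, so label and array set cannot be told apart. With array set as a block, informed by the other labels, the differences were -0.22 (adjusted p = 0.506) for Ikzf2, -0.27 (0.296) for Nt5e and 0.00 (0.995) for Il2ra.

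These calls also leaned on single arrays. Without conventional T 2, Ikzf2 1456956_at differed by -0.35 (adjusted p = 0.0707). Il2ra 1420692_at lost its call without conventional T 1, 2 or 3 or activated T 2, 3 or 4 (adjusted p 0.168, 0.109, 0.0914, 0.0644, 0.0869 and 0.072), and Nt5e 1428547_at without conventional T 1, 2 or 3 or activated T 2 or 3 (0.127, 0.114, 0.0914, 0.0789 and 0.0964). All kept their direction there.

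Activated natural Treg against activated T called Nt5e 1428547_at as higher, by 0.34 (SE 0.06, adjusted p = 0.0138), among 0.639% of all probe sets called (0.324% higher, 0.315% lower); the groups did not overlap for 2 members (7.35%). Induced Treg against activated T called the same probe set as higher, by 0.30 (SE 0.05, adjusted p = 0.0446), among 0.0422% called (0.0289% higher, 0.0133% lower); the groups did not overlap for 3 members (1.96%). The activated T arrays serve both comparisons, so the pair is not a repeat. TGF-beta was given to both Treg labels and not to activated T. The failed induced Treg label, which received TGF-beta and stayed reporter-negative, read 74.3, 87.4 and 76.2, and induced Treg differed from it by 0.01 (SE 0.06, interval -0.11 to 0.13). Conventional T, not activated and given no TGF-beta, read 77.7, 76.1 and 74.4. The part of TGF-beta in the Nt5e values was not tested. With array set as a block the first difference kept its call (adjusted p = 0.0124) and the second did not (0.32, adjusted p = 0.0965). Within array set 3 the first was 0.38 (3 arrays against 3), and the second was 0.14 in set 2 (2 against 1) and 0.53 in set 3 (1 against 3).

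Without activated natural Treg 1 the first comparison gave 0.31 for Nt5e 1428547_at (adjusted p = 0.0595). The second lost its call without induced Treg 1, 2, 4 or 5 (0.31, 0.31, 0.31 and 0.24, adjusted p 0.0768, 0.0738, 0.07 and 0.064) and without activated T 2, 3 or 4 (0.29, 0.26 and 0.31, adjusted p 0.136, 0.153 and 0.0538). Ikzf2 1456956_at was likewise higher without overlap on activated natural Treg (0.30, SE 0.08, adjusted p = 0.0759; 0.0254 with array set as a block) and on induced Treg (0.29, SE 0.07, adjusted p = 0.171). Foxp3 differed by 0.03 (SE 0.07) and -0.02 (SE 0.06) in these comparisons and Ctla4 by -0.10 (SE 0.05) and -0.01 (SE 0.04).

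**Figure D4:**
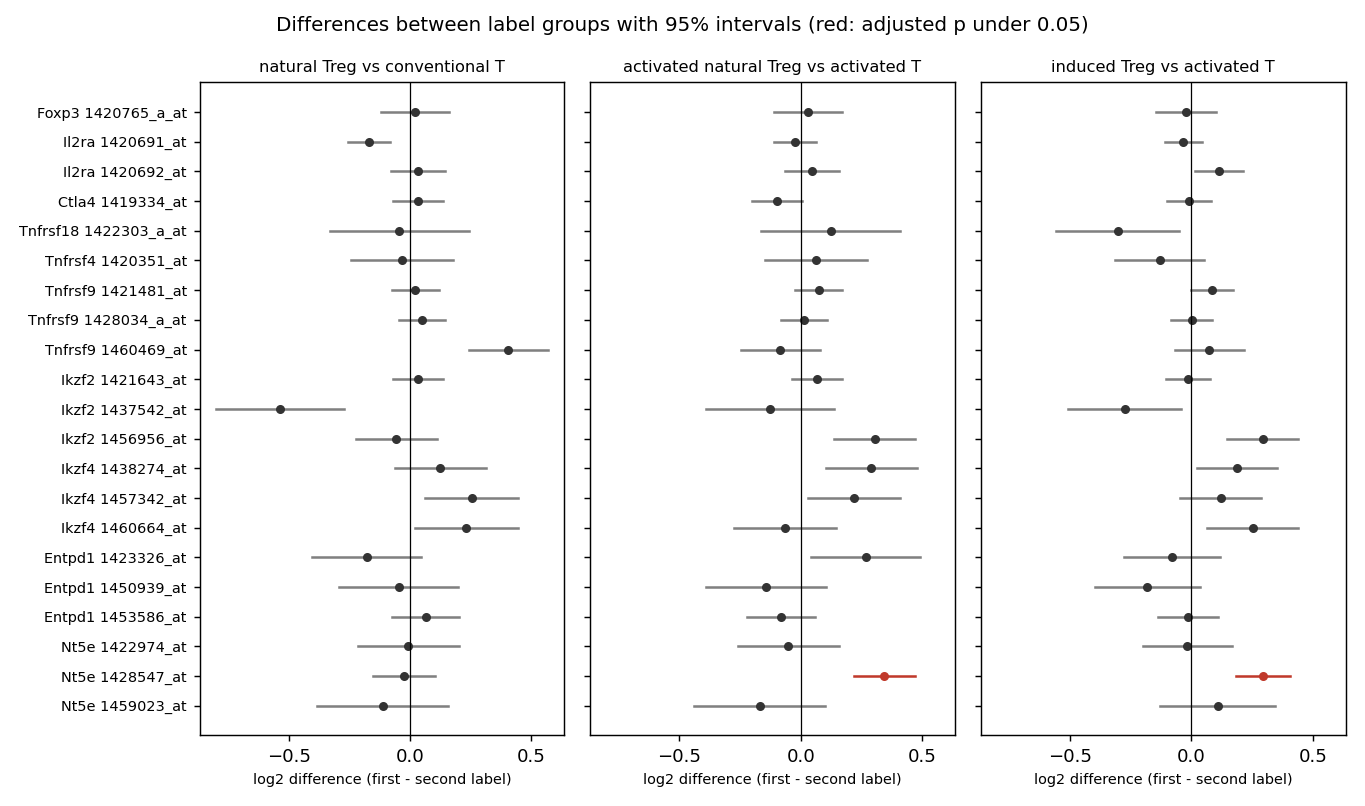
Log2 difference (first label minus second, log2(quantile normalised intensity + 16)) with 95% intervals for the 21 member probe sets in 3 comparisons; red marks an adjusted p under 0.05. In the comparisons with activated T, Nt5e 1428547_at is the called probe set, and Foxp3 lies at 0.03 or closer to 0 in all 3.

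The F test over all 10 labels called 6 of 21 member probe sets, against 7.31% of all probe sets: both of Il2ra, Tnfrsf9 1460469_at, Ikzf2 1437542_at and 1456956_at, and Nt5e 1428547_at. With array set as a block it called 1 (Tnfrsf9 1460469_at, adjusted p = 0.000188), against 0.664% of all probe sets. A pair of interactions asked whether differences depended on the setting. The difference by Foxp3 allele, induced minus natural, called 0 members (smallest adjusted p = 0.997) and 0 of all 45037 probe sets. The difference of Treg from conventional labels, activated minus native, called 0 members (smallest 0.191) and 1 of all probe sets. With so few calls in all, these counts do not set the members apart.

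Probe sets of 1 gene agreed poorly across the arrays. Over 16 pairs from 6 genes the median Pearson r, over 31 arrays that share sets, depth and labels, was 0.09, from -0.49 (Il2ra) to 0.47 (Ikzf4 1438274_at and 1457342_at), and the Ikzf4 pair was the 1 above 0.3. On deposited values, where array brightness moves all probe sets, the median was 0.66. Pairs of all other genes were no more alike after quantile normalisation: the median was 0.01 over 30356 pairs, and 0.01 over 1126 pairs with both probe sets above an intensity of 1000. None of the called differences of Nt5e, Ikzf2 or Il2ra was called with another probe set of the same gene.

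For each member probe set above background on all arrays, the genes with the most similar profiles over the 31 arrays, which share sets and labels, were looked up. Ikzf2 1456956_at was followed most closely by Ddah1 (r = 0.79), Pecam1 (0.75), Zdhhc17 (0.74), Strada (0.74) and Mfsd1 (0.73), of which Pecam1 is the endothelial adhesion molecule. 1 Pecam1 probe set was itself called lower on activated T than on conventional T (-0.61, SE 0.12). It was called higher on activated natural Treg than on activated T (0.54, SE 0.12). In each comparison it was the 1 called among 18 endothelial probe sets, whose median differences were 0.07 and 0.001. The endothelial list as a whole thus did not follow Pecam1, and the part of Pecam1 in the Ikzf2 difference was not tested. Nt5e 1428547_at was most like Fgfr2 (r = 0.73), Fxr1, Tmx4, Notum and Mcoln1 (0.67 to 0.69), Tnfrsf9 1460469_at most like Rrm2 (0.80) and Slc9b2 (0.73), and Ikzf4 1438274_at most like Ino80c (0.77) and Bcl11b (0.70). Tnfrsf18 reached 0.97 with Wapl, which fell to 0.53 after array set means were subtracted. None of the genes found this way was on the list of other Treg genes described next.

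Other Treg genes were followed with a wider list. Of 40 other Treg genes listed, 35 were measured by 74 probe sets, of which 50 were above the bacterial controls on all arrays and 1 on none, and 10 genes, among them Il10, Lag3, Ccr8, Gzmb and Il7r, had no probe set above on every array. The highest means were those of Cd83 (1165 ± 350, SD, n = 31), Cbfb (1058 ± 350), Foxo3 (603 ± 168) and Satb1 (441 ± 92.4), genes with known roles outside T cells. Between natural Treg and conventional T 0 of the 74 were called. Activated T and conventional T share no array set. Between them 4 of the 74 were higher (1.49% of all probe sets) and 0 lower (1.62%). Icos, the inducible costimulator (0.50, SE 0.13), and Swap70 (0.33, SE 0.09) were higher with 1 of their probe sets each. Pdcd1, the inhibitory receptor PD-1, was higher by 0.36 (SE 0.08). Irf4 was higher with its dimmer probe set (0.18, SE 0.04), which was above background on 4 arrays. That Irf4 probe set was also lower on activated natural Treg than on activated T (-0.22, SE 0.04). The brighter Irf4 probe set, above background on 17 arrays, was called in neither comparison. No change is therefore read for Irf4 as a gene.

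Relatives of the members show what the same families read in this RNA. Of 50 probe sets for 17 such genes, 40 were above the bacterial controls on all arrays. Foxp1, a close relative of Foxp3 expressed in neurons and lymphocytes, averaged 384 ± 80.6 (SD, n = 31) with its brightest probe set and was above on all arrays, as were Foxp2 (112 ± 23.1) and Foxp4 (60.0 ± 10.6). T cell identity genes were divided. Of 17 genes, 8 had a probe set above on every array: Thy1, Zap70, Ptprc, Cd3e, Lat, Sla2, Cd6 and Cd4. Thy1, which neurons also make, averaged 5432 ± 1667. The brightest probe sets of Zap70, Ptprc and Cd3e averaged 118.8 ± 26.93, 97.64 ± 20.76 and 36.8 ± 12.2. The other 9 genes, Cd3d, Cd3g, Cd247, Cd2, Cd5 and Cd28 among them, had no such probe set. Between activated T and conventional T, Cd3e was called higher (0.812, SE 0.16). The dimmest Zap70 probe set, above background on 28 arrays, was called lower (-0.235, SE 0.064). B cell genes (1 of 9 probe sets above on all arrays) and CD8 and natural killer cell genes (2 of 12) lay at median percentiles of 20.3 and 21.4.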

How the data were processed

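The authors deposited 1 table of linear probe set intensity per array. Summarisation, background correction, scaling and centring are not given in the sources used here and are unknown. Per the labels' protocols, total RNA was labelled with biotin as cRNA. Arrays, 1 per sample, were quantile normalised and analysed as log2(intensity + 16), which understates changes of dim genes. limma 3.58.1 in R 4.3.3 (lmFit, eBayes, 1 mean per label group over all 31 arrays) tested 45037 probe sets in 8 comparisons, with Benjamini-Hochberg adjustment over all of them. Background levels were read from deposited intensities as the 95th percentile of 27 bacterial control probe sets per array. Array sets came from Ward clustering of the array median, the 99th percentile and the log2 difference of cre and bioB control probe sets. Symbols came from the platform annotation (34945 probe sets with 1 symbol, 932 with several, 9160 with none). The scripts were tested on simulated data. Members and lists were chosen with earlier results of these data known. All member probe sets are named. The 5 genes most alike were looked up for each one above background on all arrays, and the text names some of them. Of the other lists the text names examples and not every bright or called gene. Alternatives were values as deposited, array medians, a pseudocount of 1, a filter, both blocks and leaving out each array. The number of arrays limits the precision.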

Additional observations from a re-analysis of the deposited data

Results flagged for a closer look

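63 combinations of a probe set and a label group of 4 or 5 arrays were examined for a single array lying apart, which chance gives in about 5% of them, and 4 did. Tnfrsf18 read 26.6 on activated T 4 and 21.7 to 21.8 on the other activated T arrays. Ikzf4 1438274_at read 111 on induced Treg 4 and 80.6 to 87.3 on the others, and Nt5e 1428547_at 106 there and 80.4 to 86.7 on the others, as deposited. That array had the highest deposited median of all, 55.4. After quantile normalisation both read 79.8 and 76.7 on it, inside their group. On that scale, which was not searched for such arrays, they read 94.4 and 94.0 on induced Treg 5. The other induced Treg arrays read 72.6 to 79.8 and 74.9 to 76.9. As deposited, Ikzf4 1460664_at read 21.7 on natural Treg 2 and 23.7 to 23.9 on the other natural Treg arrays.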

How the results depend on the processing

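Of the called member differences, Il2ra 1420692_at was the 1 whose sign turned under an alternative (array set as a block), while counts over all probe sets moved widely. On values as deposited, where the median of all probe sets shifted by -0.24 between activated T and conventional T and by 0.32 between induced Treg and activated T, the counts called were 8388 (11 higher, 8377 lower) and 24628 (24625 higher, 3 lower), and 0 for natural Treg against natural Foxp3-delta, 0 for activated natural Treg against activated T and 12940 for the F test. There the sign turned with a call for Tnfrsf4 (-0.25) in the former comparison and for Ctla4 (0.17), Tnfrsf4 (0.27) and Entpd1 1453586_at (0.34) in the latter, beside the shift of all probe sets, and Nt5e 1428547_at lost its call on activated natural Treg (0.17, adjusted p = 0.904). Scaling to array medians gave 136, 10364 (9544 higher, 820 lower, median shift 0.13), 181 and 9297 for natural Treg against natural Foxp3-delta, activated T against conventional T, activated natural Treg against activated T and the F test. The filter kept 8 of the 21 members and called 1 probe set between natural Treg and conventional T. With array set as a block the counts were 2, 4, 31, 590 and 7 for the first 5 comparisons (natural Treg against conventional T and Foxp3-delta, activated T against conventional T, activated natural and induced Treg against activated T) and 299 for the F test, and Il2ra 1420692_at turned to 0.003. Within array set 3 alone 0 were called between activated natural Treg and activated T, an alternative chosen after seeing the data. Leaving out 1 array gave 0 to 2, 2 to 404, 225 to 2375, 80 to 878 and 0 to 246 in those 5, 0 to 0 for induced against failed induced Treg, 0 to 1 for induced Treg against induced Foxp3-delta and 0 to 3 for the IL-2 pair. Nt5e 1428547_at on induced Treg against activated T fell just short with a pseudocount of 1 (0.36, adjusted p = 0.0544) and with the filter (0.0591). Deviations of same-numbered arrays had r from -0.21 to 0.29, with no comparison above 0.1 in every pair, and the main fit used no pairing. For induced against failed induced Treg, sorted from such cultures, r was 0.04 to 0.29, with 2 pairs above 0.1. These r values cannot decide whether same-numbered arrays were paired. With the replicate block 730 probe sets were called for natural Treg against natural Foxp3-delta. Of the 21 members, 5, 9 and 7 were above the highest bacterial control on all, some and no arrays, and 0, 4 and 17 above the genes of other organs; above the highest Y-linked probe set, added after seeing the data, they were 15, 6 and 0. Leaving out single arrays gave 12 to 13, 5 to 7 and 2 to 3 against the bacterial 95th percentile. Low signal over background limits Foxp3, Il2ra, Ctla4 and the dim Tnfrsf9 and Ikzf2 probe sets.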
